A study of Homo sapiens with 8 samples.

Results

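Pseudogene names were assigned to 424 of the 10987 N6-methyladenosine (m6A) peaks in a comparison of METTL3 knockdown with control thyroid cancer cells. Peaks entered when the gene description in the authors' deposited table contains the word pseudogene and the gene symbol does not begin with RPL, RPS or RPLP, the symbols of ribosomal protein copies, which set aside 26 further pseudogene peaks. The 424 peaks belong to 312 gene names and form 377 separate places in the genome, since some peaks of a gene overlap. A peak was called when its deposited false discovery rate (FDR) was under 0.05. By that rule 29 peaks were lower and 20 higher in the knockdown, 49 in all or 11.6% (95% Clopper-Pearson interval 8.67% to 15.0%), against 17.1% of all peaks in the authors' deposited table.

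The cells were BCPAP, an established line derived from a papillary thyroid carcinoma, with the genotype control or METTL3 knockdown. METTL3 catalyses m6A formation in the nuclear methyltransferase complex, and the submitters asked which methylated transcripts change once it is depleted. Poly(A) RNA was fragmented, a portion was enriched with an anti-m6A antibody, and 8 libraries were made: 2 control inputs, 2 control immunoprecipitates, 2 knockdown inputs and 2 knockdown immunoprecipitates. The knockdown pairs are titled sh1 and sh3, so the 2 libraries of each knockdown group bear different titles, and separate cultures are not stated in the labels. Values per library were not analysed here, so the depth is unknown and the spread between replicates could not be examined for any value below. Whether that spread entered the deposited p and FDR is not known. The depletion of METTL3 itself could not be checked either, and METTL3 has 0 peaks in the table. Every log2 fold change, p and FDR below is taken from the authors' deposited table, and a fold change was read as m6A enrichment in the knockdown relative to the control, a direction the header does not state.

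Pseudogenes are copies of functional genes that no longer encode the full protein. Processed pseudogenes arose from reverse-transcribed mRNA, so they lack the introns of the parent and lie anywhere in the genome, often inside another gene. Unprocessed pseudogenes came from duplicated DNA and keep an exon structure, and many of them are transcribed and spliced. Reads from a recent copy can be nearly identical to reads from its parent or from another copy, so how reads with several matches were assigned bears on every peak described here; that assignment is not given in the sources used here. METTL3 methylates adenosine mainly in a DRACH context, of which GGAC is the most frequent core, and methylation in mRNA is concentrated in long internal exons and near stop codons.

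Genomic sequence from the spans of 2 pseudogene peaks could be shown from RefSeq promoter windows of GRCh38.p14, which run from 250 bases before to 50 bases after a transcription start. These stretches are shown because they give the GGAC core in its surroundings within spans of the pseudogene set, 1 from a peak that was not called and 1 from a peak that was. FAHD2CP, a pseudogene of the fumarylacetoacetate hydrolase domain family, had a 120-base exon peak at chr2:96010670-96010789 that lies whole within the window of the neighbouring gene LOC124900512. The BMS1 pseudogene AC026273 had a called peak whose span covers the 100 bases upstream of LOC107985915 at chr2:94207861-94207960. Long spans include introns, and whether these 100 bases belong to the RNA pulled down was not tested. Both are written 5′ to 3′ on the plus strand, with GGAC and its reverse complement GTCC in capitals; the strand of the peaks themselves is not in the table.
FAHD2CP: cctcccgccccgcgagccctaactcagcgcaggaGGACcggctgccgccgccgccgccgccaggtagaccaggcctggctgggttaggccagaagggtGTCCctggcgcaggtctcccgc
AC026273: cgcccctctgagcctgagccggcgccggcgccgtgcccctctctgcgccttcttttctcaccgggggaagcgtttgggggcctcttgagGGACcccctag
The FAHD2CP stretch holds the letters GGAC 1 time on each strand, and the AC026273 stretch holds them 1 time on the plus strand. Such a match is common: of 35116 RefSeq windows, 59.3% held GGAC on either strand in the stretch placed like that of FAHD2CP and 51.4% in the stretch placed like that of AC026273. The FAHD2CP peak had a log2 fold change of 1.81 (FDR 0.582) and the AC026273 peak one of -0.91 (FDR 0.0251) in the authors' deposited table.

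Log2 fold changes of the pseudogene peaks ran from -6.0 to 6.04, with quartiles of -0.93 and 1.18 and a median of 0.34. Over all 10987 peaks of the authors' deposited table the median was -0.24. Of the 424 pseudogene peaks, 235 (55.4%) lay above 0, against 44.7% of all peaks. With the median of all peaks set to 0, 239 (56.4%) lay above 0 and no called pseudogene peak changed sign. Among called pseudogene peaks 29 of 49 lay below 0, beside 1167 of 1883 among all called peaks. Pseudogene peaks also had larger fold changes in either direction, with a median absolute log2 fold change of 1.05 against 0.66 for all peaks, and 225 of them (53.1%) differed by at least 1 on the log2 scale against 32.9% of all peaks. Their median FDR was 0.365, against 0.286 for all peaks, so the larger fold changes did not come with smaller FDRs in the authors' deposited table. Over all exon-labelled peaks, the label of most pseudogene peaks, 52.1% lay above 0. Their median absolute log2 fold change was 0.95, 48.3% differed by at least 1 and their median FDR was 0.344. These values lie nearer to those of the pseudogene peaks than the values of all peaks do.

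**Figure D1:**
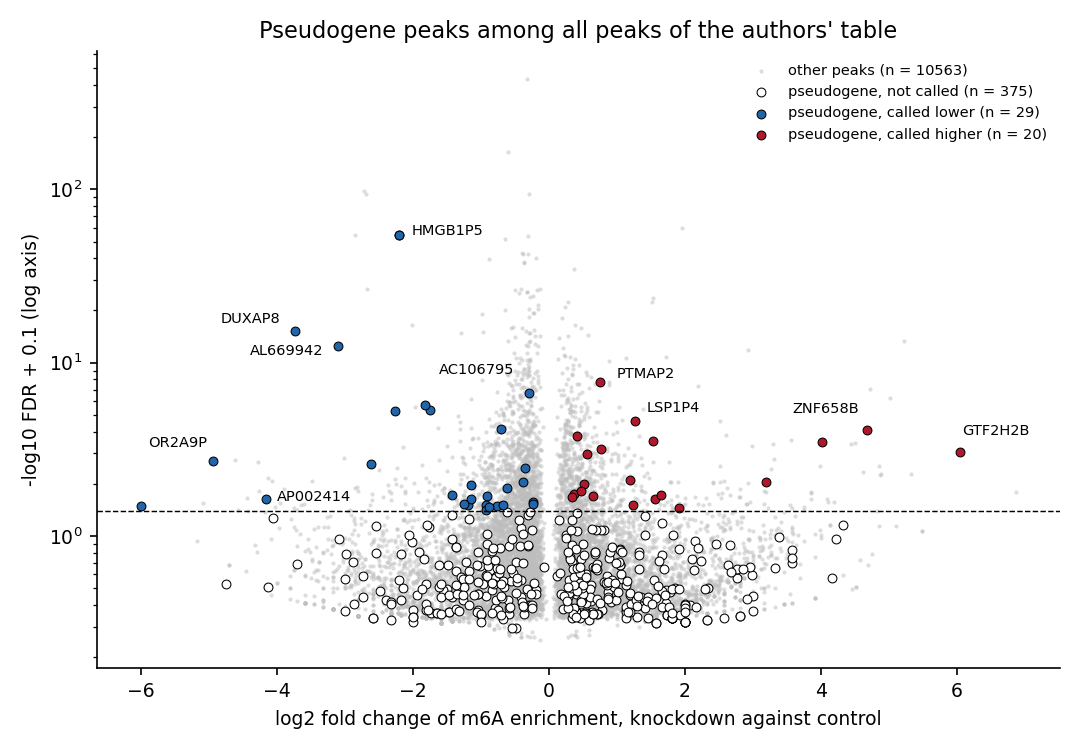
Log2 fold change of m6A enrichment (horizontal axis) against -log10 FDR plus 0.1 on a log axis (vertical) for all 10987 peaks of the authors' deposited table; grey points are other peaks, white points the 375 pseudogene peaks that were not called, blue points the 29 called lower and red points the 20 called higher. The dashed line is an FDR of 0.05; HMGB1P5 lies highest of the pseudogene peaks at a log2 fold change of -2.21, and the called peaks reach from OR2A9P at -6.0 to GTF2H2B at 6.04.

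The background for a directional count is 10.6% of all peaks called lower and 6.52% called higher. Most pseudogene peaks (367) are annotated as exon, a label that includes exons of non-coding transcripts, and 41 of these were called (11.2%; 24 lower and 17 higher). Over all exon-labelled peaks 11.5% were called, 5.3% lower and 6.23% higher, so the share of exon-labelled pseudogene peaks called is near that background. Their median log2 fold change was 0.40, against 0.20 for the 3365 exon-labelled peaks that are not described as pseudogenes, with median absolute values of 1.13 and 0.94. The 3' UTR label fell on 49 pseudogene peaks, of which 6 were called, 3 lower and 3 higher (12.2%), against 21.8% of all 3' UTR peaks (15.9% lower and 5.94% higher). Their median of -0.25 was close to the -0.30 of all 3' UTR peaks. The 5' UTR label fell on 8, of which 2 were called, both lower, against 16.8% of all 5' UTR peaks (8.79% lower and 8.00% higher), and their median was -0.71 against -0.14 in the authors' deposited table.

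**Figure D2:**
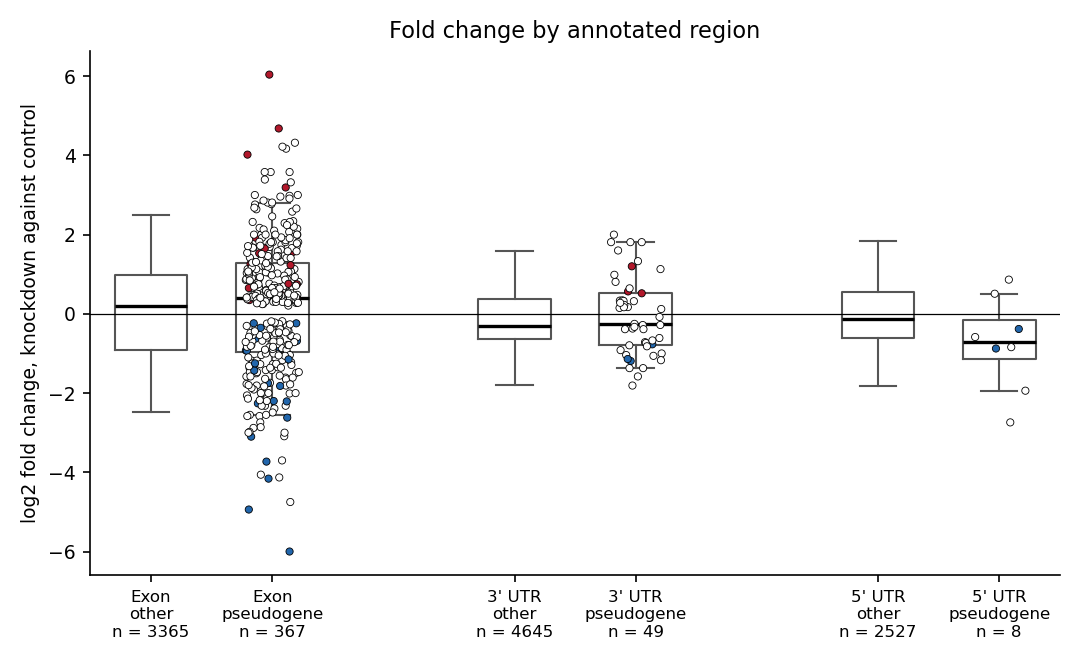
Log2 fold change (vertical axis) of pseudogene peaks and of peaks not described as pseudogenes ("other") for each annotated region; boxes span the quartiles with the median as a thick line, whiskers run from the 5th to the 95th percentile, and points are single pseudogene peaks, blue if called lower, red if called higher and white if not called. The pseudogene median lies above 0 for exon-labelled peaks (0.40) and below 0 for 3' UTR peaks (-0.25) and 5' UTR peaks (-0.71).

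The called pseudogene peak with the smallest FDR was that of HMGB1P5 (ENSG00000132967), a processed copy of HMGB1, the abundant high mobility group protein that bends DNA in chromatin. Its single exon at chr3:22382124-22382482 had a log2 fold change of -2.21 (FDR 3.98e-55), a fold change of 0.216, and a second peak nested within it gave -2.20 (FDR 7.94e-55). The parent HMGB1 has 0 peaks in the table analysed here. Next came DUXAP8 (ENSG00000206195), a transcribed double homeobox A pseudogene on chromosome 22, where the peak in exon 5 of 8 at chr22:15790781-15791321 was lower by -3.73 (FDR 7.94e-16). A second DUXAP8 peak in exon 7, spanning chr22:15798257-15818580, was lower by -2.26 (FDR 7.08e-06), and the remaining peak had a log2 fold change of 0.55 (FDR 0.314), so the peaks of this gene did not share a sign. Its relatives DUXAP9 (0.60, FDR 0.452) and DUXAP10 (2.29, FDR 0.405, and -0.36, FDR 0.511), named after their values were seen, had no called peak in the authors' deposited table.

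A single stretch of chromosome 9 held 3 further called decreases. AL669942 (ENSG00000274628), described as a cytochrome P450 family pseudogene, had peaks at chr9:66049745-66050641 (-3.10, FDR 5.01e-13) and chr9:66047084-66047503 (-1.75, FDR 6.17e-06), and another peak at -4.13 was not called (FDR 0.393). The peak of SNX18P4, a copy of the endosomal sorting nexin SNX18, spans 37419 bases at chr9:66047107-66084525, overlaps all 3 AL669942 peaks and was lower by -1.82 (FDR 2.40e-06). The table gives no strand, so these peaks cannot be assigned to separate transcripts. In all, 7 of the 30 pseudogene peaks on chromosome 9 were called, 3 lower and 4 higher, beside 17.1% of all peaks. The 3 lower ones are those above, joined by the SNX18P4 span. Of the 4 higher ones, 2 are overlapping peaks of ZNF658B.

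The most negative called fold change was at OR2A9P (ENSG00000228960), a transcribed copy of an olfactory receptor, the odorant-sensing receptors of the nasal epithelium. All 3 of its peaks lie in its last exon and all 3 were below 0: -6.0 at chr7:144299445-144299623 (FDR 0.0407), -4.94 at chr7:144299683-144300219 (FDR 0.00251) and -1.58 (FDR 0.557) for the remaining peak of 61 bases. AP002414, described as a copy of the kinesin motor gene KIF1C, had a log2 fold change of -4.16 (FDR 0.0288) at chr18:12057234-12057734. HERC2P2, a duplicated copy of the ubiquitin ligase gene HERC2 in the chromosome 15 duplication region, was lower by -2.62 (FDR 0.00316) over its last exon at chr15:22579695-22587494, and an adjoining HERC2P2 peak had a more negative value of -4.06 without being called (FDR 0.0676). PRORSD1P, a pseudogene of a prolyl-tRNA synthetase associated domain gene, was lower by -1.43 (FDR 0.0234). PMPCAP1, a copy of the mitochondrial processing peptidase gene PMPCA, was lower by -1.15 (FDR 0.0288) in the authors' deposited table.

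Other called decreases had smaller fold changes. YTHDF2P1 (ENSG00000270503) copies YTHDF2, the cytoplasmic reader that binds m6A and promotes decay of the RNA, and its single exon was lower by -1.25 (FDR 0.0380) at chr14:39216158-39216335. HNRNPCP1 copies HNRNPC, a nuclear RNA-binding protein whose access to RNA can depend on m6A, and was lower by -1.19 (FDR 0.0398). AC106795 (ENSG00000170089) is described as a copy of THOC3, a subunit of the mRNA export complex THO, and had one of the smallest FDRs at a small fold change, -0.29 (FDR 2.57e-07), over its last exon at chr5:177883683-177885267. AL031729, described only as a pseudogene with no parent, was lower by -0.70 (FDR 8.91e-05) at chr1:27649419-27649610. SEC22B, a vesicle trafficking gene that the table describes as gene/pseudogene and RefSeq lists as protein-coding, was lower by -1.14 (FDR 0.0138). The parents YTHDF2, HNRNPC, THOC3, HERC2, KIF1C and PMPCA each have 0 peaks in the table analysed here, so none of these copies could be set beside its parent.

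The largest called increase was at GTF2H2B (ENSG00000226259), a duplicated copy of GTF2H2, which encodes a subunit of the transcription and repair factor TFIIH. Its peak in exon 13 of 16 at chr5:70440797-70441443 had a log2 fold change of 6.04 (FDR 0.00107), a fold change of 65.8. ZNF658B (ENSG00000198416), a zinc finger pseudogene on chromosome 9, had 4 overlapping or adjoining peaks that were all above 0. The peak at chr9:39445547-39447070 was higher by 4.68 (FDR 0.000105) and that at chr9:39445709-39447083 by 4.02 (FDR 0.000427), whereas shorter peaks at 2.00 (FDR 0.543) and 2.81 (FDR 0.566) were not called. AC008687 (ENSG00000269706), a copy of the neurotrophin gene NTF4, was higher by 3.19 (FDR 0.0112), a fold change of 9.13, at chr19:49050247-49050576. Folds this large rest on an unknown number of reads, since counts behind the peaks of the authors' deposited table were not analysed here.

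Smaller increases had some of the smaller FDRs. PTMAP2 (ENSG00000197744), a processed copy of the prothymosin alpha gene PTMA, was higher by 0.75 (FDR 2.45e-08) at chr5:118973796-118974122, overlapping the bounds of the protein-coding gene DTWD2. LSP1P4, a duplicated copy of the leukocyte actin-binding protein gene LSP1, had 2 separate called peaks, higher by 1.26 (FDR 2.95e-05) over chr2:91636789-91643144 and by 1.65 (FDR 0.0234) over chr2:91617220-91618059. AFG3L1P, related to the subunits of a mitochondrial matrix protease, was higher by 0.41 (FDR 0.000214), and its functional relative AFG3L2, named after its values were seen, was lower by -0.25 (FDR 0.000646). WASH3P, a copy from the family of endosomal actin regulators, was higher by 0.76 (FDR 0.000871). The readthrough pseudogene ARHGAP27P1-BPTFP1-KPNA2P3 was higher by 1.92 (FDR 0.0447), the GTF2I copy AL133216 by 1.56 (FDR 0.0295), LRRC37A4P by 1.23 (FDR 0.0389), and AL354718, a copy of the ribosomal protein gene RPL7A under a clone name, by 0.65 (FDR 0.0251) in the authors' deposited table.

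Around the threshold, the last peaks inside were AL160236 (FDR 0.0407), PLEKHA8P1 (0.0417), ARHGAP27P1-BPTFP1-KPNA2P3 (0.0447) and AHSA2P (0.0479), and the first outside were RNU6-762P and a second AL160236 peak (0.0525 each), BTN2A3P (0.0550), AC068631 and AMZ2P1 (0.0589 each). The count of called pseudogene peaks depended on the rule. At an FDR under 0.01 there were 22 (5.19%; 9.24% of all peaks), and 27 (6.37%; 2.86% of all peaks) had an FDR under 0.05 and differed by 1 or more on the log2 scale. At a deposited p under 0.01 there were 62 (14.6%; 22.5% of all peaks). Benjamini-Hochberg values recomputed from the p of the authors' deposited table called 67 (15.8%; 24.2% of all peaks). The pseudogene share was below that of all peaks under each rule except the one that asks for a large fold change, where it was above.

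Parent genes were looked up next, because a copy and its parent share sequence. Of the 424 peaks, 193 (146 pseudogenes) have a symbol that ends in P and a number, which points to 119 parent symbols. The parent had peaks for 81 of them, on 60 pseudogenes and 48 parents, and the parent was represented by its peak with the smallest p, a choice that favours called parent peaks. In these 81 pairs the copy had a median log2 fold change of 0.48 and the 48 parents a median of -0.35, with 36 of 48 parents below 0 and 22 of 48 called. The sign was shared in 34 of 81 pairs (42.0%, Clopper-Pearson interval 31.1% to 53.5%): 22 with both below 0 and 12 with both above. In 43 pairs the copy lay above 0 and the parent below, and in 4 the copy lay below and the parent above. Pairs of a shared parent are not independent, which the interval does not cover.

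The pairs differ in more than copy against parent. Of the 81 copy peaks, 74 carry the exon label, whereas 38 of the 48 parent peaks lie in a UTR (26 in the 3' UTR), and exon-labelled peaks in general lay higher (median 0.23) than 3' UTR peaks (median -0.30) in the authors' deposited table. Of the 81 pairs, 51 have copy and parent on different chromosomes. The median absolute log2 fold change was 0.88 for copies and 0.53 for parents. When the parent was read from the description text, which adds clone-named copies, 104 peaks of 81 gene names paired with 65 parents and 45 (43.3%) shared the sign.

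Of the 81 paired copy peaks, 7 were called, on 6 pseudogenes with 5 parents. For comparison, 17.1% of all peaks and 11.5% of all exon-labelled peaks were called. In 6 of these 7 pairs the parent peak was called too, with the same sign in 4. Parents were represented by their peak with the smallest p, and 22 of all 48 were called. Whether calls of copy and parent go together was not tested. Of these 4, 2 are the nested HNRNPA1P48 peaks, and BMS1 is the parent in both pairs of unlike sign, so the pairs are not independent. UBE2V1P2, a copy of the ubiquitin-conjugating enzyme variant UBE2V1, was lower by -0.35 (FDR 0.00437) and its parent by -0.26 (FDR 2.63e-06). HNRNPA1P48, a copy of the splicing factor HNRNPA1 that RefSeq lists as the protein-coding HNRNPA1L3, had nested peaks lower by -0.24 (FDR 0.0331 and 0.0380), and HNRNPA1 was lower by -0.36 (FDR 0.000178). SNX18P4 was lower by -1.82 and SNX18 by -0.43 (FDR 0.0363). PLEKHA8P1, a copy of the lipid transfer protein gene PLEKHA8, was lower by -0.88 (FDR 0.0417), while the parent value of -1.12 was not called (FDR 0.232). Of the 5 called clone-named copies that the description added, AC026273 had a called parent peak of the same sign, BMS1, described below. The others were AC132008 (-0.62, FDR 0.0158; parent SDHA -0.34, FDR 0.194), AC244669 (-0.92, FDR 0.0389; parent PARP8 -0.10, FDR 0.466), AL133216 (1.56; parent GTF2I -0.35, FDR 0.109) and AC008687 (3.19; parent NTF4 -1.10, FDR 0.543), none with a called parent in the authors' deposited table.

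**Figure D3:**
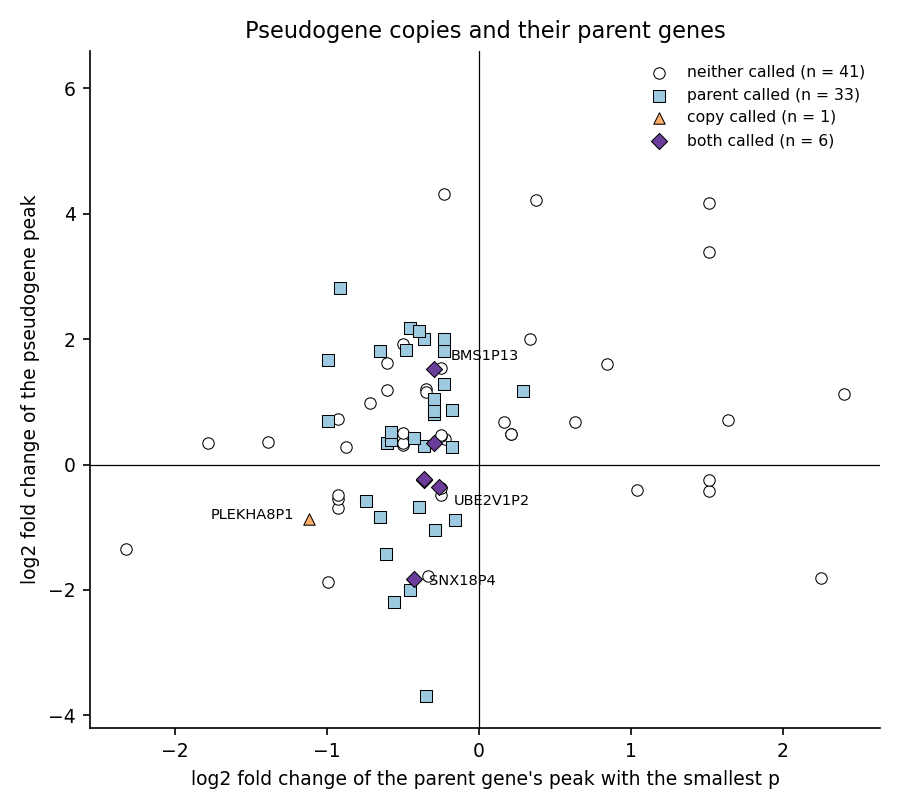
Log2 fold change of each pseudogene peak (vertical axis) against that of its parent gene's peak with the smallest p (horizontal axis) for the 81 pairs matched by symbol; marker shape and colour give which of the pair was called. The upper left quadrant, copy above 0 and parent below, holds 43 of the 81 pairs and the lower right holds 4.

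BMS1, a GTPase needed to assemble the small ribosomal subunit, had several copies with peaks, and this group was put together after its values were seen. The parent was lower by -0.30 (FDR 0.0209) at an exon peak on chromosome 10. BMS1P13 was higher by 1.53 (FDR 0.000355) at chr9:65831059-65831696 and BMS1P17 by 0.35 (FDR 0.0257) at chr14:19300221-19303126. The clone-named copy AC026273, whose GGAC-containing stretch is printed above, was lower by -0.91 (FDR 0.0251) over chr2:94202418-94208379. The 6 BMS1 copies had 9 peaks in 7 separate places. Of the 9 peaks, 8 lay above 0, against 44.7% of all peaks and 52.1% of all exon-labelled peaks. The 3 copy peaks given here were the ones called, against 17.1% of all peaks. Copies of the same parent were thus called in opposite directions.

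Some copies lie inside other genes, and there the label and the neighbour matter. Judged by RefSeq bounds, 101 pseudogene peaks overlapped another protein-coding gene, and 9 of these were called (8.91%), against 40 of the 323 that overlapped none (12.4%). Of the 57 UTR-labelled pseudogene peaks, 45 overlapped another coding gene, whereas 56 of the 367 exon-labelled peaks did. Of the 8 called UTR-labelled peaks, 6 overlapped another coding gene. AC026436 (an RPS12 copy, -0.38, FDR 0.0112) lies in CKMT2, AC104117 (1.2, FDR 0.00977) in ZNF354C and AP000873 (an RPL32 copy, 0.52, FDR 0.0129) in ANKRD42. AL160236 (an HMGN2 copy, -0.77) lies in TRMT5, AL049779 (a DNAJC9 copy, 0.57, FDR 0.00138) in ZFYVE26 and HNRNPCP1 in KIAA0586. PLEKHA8P1 and SEC22B overlapped no other coding gene. Whether the RNA pulled down came from the copy or from the gene around it was not tested, as the authors' deposited table has no strand.

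For 23 pseudogene peaks the table holds an overlapping peak assigned to another gene, and 6 of the 23 were called, against 17.1% of all peaks. Of these 6, the 2 of AL669942 and that of SNX18P4 overlap each other's pseudogene and no other gene's peak. HNRNPCP1 (-1.19) overlapped a KIAA0586 3' UTR peak of -0.99 (FDR 0.0501) over 689 bases. NPM1P32, a copy of the nucleolar protein gene NPM1, at -0.39 (FDR 0.116) overlapped a called 3' UTR peak of NIFK at -0.32 (FDR 0.00468). AC025423 at 0.17 (FDR 0.431) lay inside an MDM2 3' UTR peak of 0.18 (FDR 0.341). In other places the values differed: DSTNP2, a copy of the actin-severing protein gene DSTN, was lower by -0.68 (FDR 0.0389) inside an LRRC23 span at 0.35 (FDR 0.305), and AL049779 at 0.57 held a ZFYVE26 exon peak at -1.66 (FDR 0.147). These neighbours were named after their values were seen.

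Among copies grouped by the gene they derive from, those matched by the name patterns for keratin, tubulin and thymosin genes had 10 peaks on 7 pseudogenes, all 10 above 0 (0.28 to 2.66, median 0.89), and 0 were called at an FDR under 0.05. Other cytoskeletal genes of the pseudogene set outside these patterns lay on both sides of 0. Examples below 0 were DSTNP2 (-0.68, FDR 0.0389) and MYH16 (-2.58, FDR 0.578, and -2.0, FDR 0.573). Examples above 0 were TPM3P9 (0.64, FDR 0.1) and AC098614, a TPM4 copy (1.29, FDR 0.577). The shared sign thus holds for the patterns used. The copies matched by these patterns include KRT18P12 (2.10, FDR 0.230), KRT18P4 (1.77, FDR 0.514) and KRT18P59 (2.66, FDR 0.162), copies of an epithelial keratin. The value of the parent KRT8 of KRT8P12 was -0.87 (FDR 0.171) against 0.28 (FDR 0.520) for the copy. Copies of hnRNP, nucleolar and chromatin protein genes had 20 peaks, of which 7 were called (17.1% of all peaks and 11.6% of pseudogene peaks were called), 5 lower (HMGB1P5 with 2 peaks, HNRNPA1P48 with 2 and HNRNPCP1) and 2 higher (PTMAP2 and HMGN1P38, a nucleosome-binding protein copy, 0.48, FDR 0.0186). Their median log2 fold change was 0.03, and 10 of 20 lay above 0. The 7 called peaks of that group come from 5 pseudogenes, since those of HMGB1P5 and of HNRNPA1P48 are nested pairs, 1 of them with a called parent peak in the authors' deposited table.

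The name group drawn up for copies of tumour suppressor and signalling genes had 11 peaks, 9 of them above 0 and 2 called higher (17.1% of all peaks were called). Both calls, BMS1P13 and BMS1P17, are copies of BMS1, a ribosome assembly gene, and so are 6 of the 11 peaks. FER1L4, a transcribed copy of the fer-1 family, stood at 2.20 (FDR 0.175) and was not called. Segmental duplication families had 35 peaks on 27 pseudogenes with 1 called lower (HERC2P2) and 1 called higher (WASH3P), and values from -4.06 to 4.17, the latter at GOLGA2P7 (FDR 0.340). Copies of glycolytic genes had 4 peaks and 0 calls, with TPI1P2 at -1.80 (FDR 0.0891) and PGAM1P8 at 1.42 (FDR 0.521). Translation factor copies matched by name had 3 peaks, all above 0 and 0 called, while TUFMP1, a copy of a mitochondrial elongation factor gene outside the pattern, stood at -2.18 (FDR 0.207). The 3 were led by EIF3FP1 at 0.35 (FDR 0.555), whose parent EIF3F was lower by -0.61 (FDR 6.31e-14). Chaperone and cyclophilin copies had 4 peaks and 0 calls, from CCT6P3 at -4.75 (FDR 0.370) to PPIAP3 at 1.93 (FDR 0.561). No ferritin copy and no nuclear copy of a mitochondrial gene was among the pseudogene peaks under the name patterns used. Together these name groups took in 87 peaks, 11 of them called, in the authors' deposited table.

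Further groups were formed from the descriptions after the values were seen. Their called counts are to be read against the 17.1% of all peaks and 11.6% of pseudogene peaks that were called. Zinc finger copies were the largest with 33 peaks on 17 pseudogenes, 22 above 0 and 2 called, which are overlapping peaks of ZNF658B. Ribosomal protein copies that carry clone names, and so were not removed by symbol, had 16 peaks with 3 called, AC026436 lower and AP000873 and AL354718 higher, against 5 called of the 26 peaks removed by symbol (4 lower and 1 higher; median -0.27). Olfactory receptor copies had 7 peaks, the 2 called ones at OR2A9P, and the others included OR2T32P at 1.86 and 2.86 (FDR 0.397 and 0.284) and OR7E19P at -1.25 (FDR 0.388). Copies of HLA class I genes had 3 peaks (HLA-J -2.98, HLA-L -0.59 and HLA-V 0.71) and 0 calls. FAM86 copies had 7 peaks, 3 above 0, and copies of small RNA genes 7 peaks, 5 above 0, again with 0 calls each in the authors' deposited table.

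How far peaks of the same pseudogene moved together could be read from 46 pseudogenes with peaks in more than 1 separate place. All peaks had the same sign in 29 of them, 18 above 0 and 11 below, and both signs occurred in 17. EP400P1, a copy of the chromatin remodeler gene EP400, had 4 peaks in 4 places, all above 0 (0.31, 0.35, 0.50 and 1.92), while the parent EP400 stood at -0.50 (FDR 0.172). AC006001, a copy of RABGEF1, had 4 peaks all below 0, from -2.01 to -0.31. SCAND2P had the most peaks, 9 in 6 places, with 4 above 0 and 5 below (-1.58 to 0.65), and its 4 peaks in the stretch chr15:84641072-84641791 were all below 0. PLEKHM1P1 had 5 peaks, the overlapping pair at -0.48 and -0.38 below 0 and the remaining 3 above (0.46, 0.47 and 1.54). Of the 46 pseudogenes, 10 had a called peak in the authors' deposited table, whereas EP400P1, AC006001, SCAND2P and PLEKHM1P1 had 0 called peaks each. With 1 peak kept per gene, 42 of all 312 pseudogenes were called (13.5%). Genes with several peaks have more chances of a call. Over all such genes, neither the share called nor the share with a single sign was computed.

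**Figure D4:**
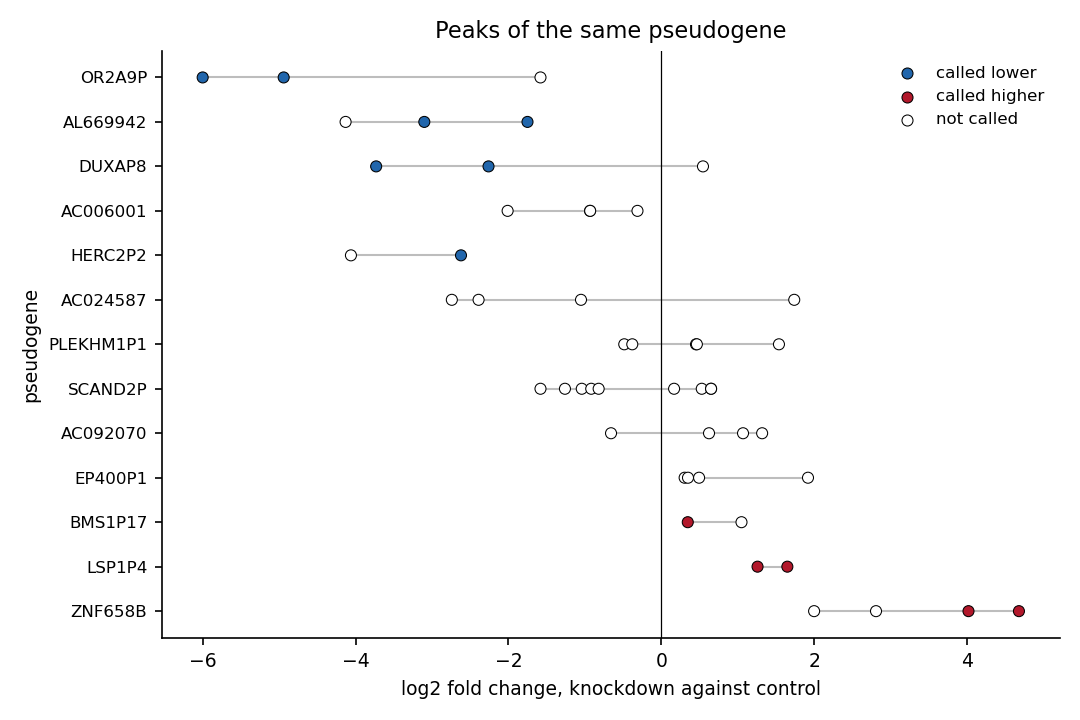
Log2 fold change (horizontal axis) of every peak of 13 pseudogenes with several peaks (1 line each), chosen after the values were seen; filled points were called lower (blue) or higher (red) and white points were not called. The peaks of OR2A9P, AL669942, HERC2P2 and AC006001 all lie below 0, those of EP400P1, BMS1P17, LSP1P4 and ZNF658B all above, and DUXAP8, AC024587, PLEKHM1P1, SCAND2P and AC092070 have both signs.

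By the gene class that RefSeq gives to the same symbol or a unique synonym, 200 peaks belong to transcribed pseudogenes, of which 19 were called (9.50%; 9 lower and 10 higher), and 101 to pseudogenes not marked as transcribed, of which 10 were called (9.90%; 7 lower and 3 higher). Median log2 fold changes were 0.41 and 0.38. For comparison, 17.1% of all peaks and 11.5% of all exon-labelled peaks were called. Clone-named peaks without a RefSeq match numbered 117, with 17 called (14.5%; 10 lower and 7 higher) and a median of 0.15. The protein-coding class took 5 peaks, of SEC22B, HNRNPA1P48 and MYH16, 3 of them called, all lower, and 2 of these 3 are the nested HNRNPA1P48 peaks. For 56 pseudogene peaks the annotated exon belongs to a different gene identifier, and 4 of the 56 were called (7.14%, against 11.5% of all exon-labelled peaks).

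The genomic span of pseudogene peaks was much like that of all peaks at the short end, with 116 of 424 under 200 bases against 2933 of all 10987. The genomic span had a median of 343.5 bases against 389 for all peaks, with a range of 59 to 69723, and long spans include introns. Under 200 bases, 5 of 116 pseudogene peaks were called (4.31%; 5.80% of all peaks that short). From 200 to below 1000 bases 24 of 202 were called (11.9%; 17.2% of all), and at 1000 bases or more 20 of 106 (18.9%; 27.6% of all). The share called was below that of all peaks in each class of span, with the region label not held fixed. Most pseudogene peaks are exon-labelled, and within that label 11.2% were called against 11.5% of all exon-labelled peaks. The interval of the pseudogene share takes in the share of all peaks below 200 bases (1.41% to 9.77%) and at 1000 bases or more (11.9% to 27.6%, its upper end next to that share), and from 200 to below 1000 bases it ends at 17.2%, next to that of all peaks.

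**Figure D5:**
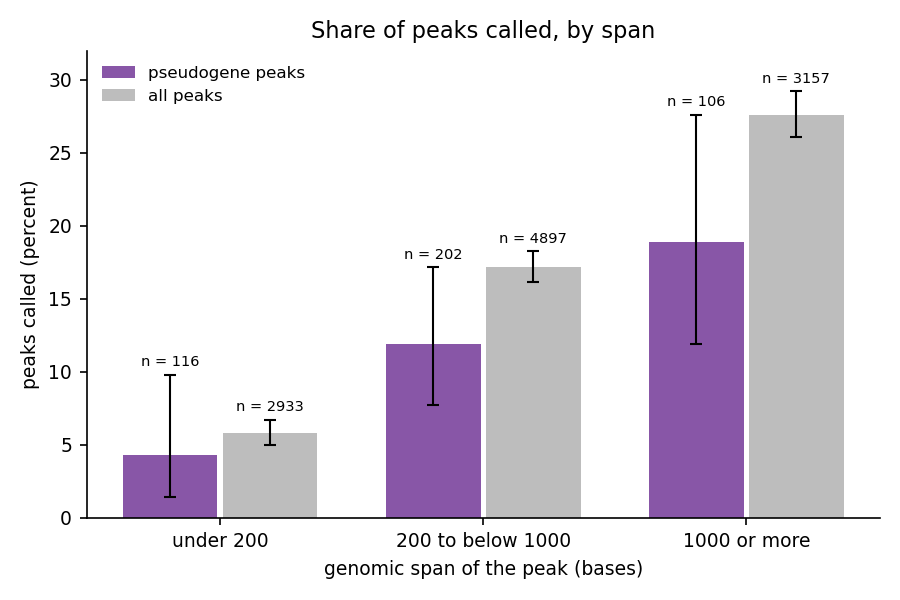
Percent of peaks called at an FDR under 0.05 (vertical axis) by genomic span in bases (horizontal axis) for pseudogene peaks (purple) and all peaks (grey), with 95% Clopper-Pearson intervals that cover counting error only and the number of peaks above each bar. Pseudogene peaks rise from 4.31% to 18.9% and all peaks from 5.80% to 27.6% with span.

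Identical values recur among the short peaks. A pair of log2 fold change and FDR shared with at least 1 other peak of the table occurred in 60 pseudogene peaks (14.2%), against 908 of all peaks (8.26%), and in 45 of the 116 pseudogene peaks under 200 bases (38.8%; 22.0% of all peaks that short). Among exon-labelled peaks the shares were closer, 14.4% of pseudogene peaks and 12.5% of peaks not described as pseudogenes. The pair 1.81 and 0.582, that of the FAHD2CP peak printed above, occurred in 9 peaks of which 6 are pseudogene peaks, among them peaks of USP32P1 and FAR2P2. The pair 2.00 and 0.604 occurred in 12 peaks, 5 of them pseudogene peaks. A log2 fold change of 2.00 appeared in 9 pseudogene peaks and its negative in 4, with 0 of these called in the authors' deposited table.

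Called shares per chromosome rest on few peaks and are to be read against the 17.1% of all peaks. Chromosome 7 held the most pseudogene peaks, 40 or 7.56% of its peaks, of which 2 were called, both at OR2A9P. Chromosome 15 had 32 (7.37% of its peaks, 3 called) and chromosome 9 had 30 (6.33%, 7 called) in the authors' deposited table.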

How the data were processed

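The data are 1 table of the authors' own comparison of METTL3 knockdown with control BCPAP cells, from 8 libraries in 4 groups of 2. Per the submitters' processing notes, which give no roles, the tools were HISAT2, StringTie, edgeR, fastp, HOMER and ChIPseeker, with builds hg38 and GRCh38. How peaks were called, libraries pooled and reads with several matches assigned is not given in the sources used here; all of these bear on copied genes. The log2 fold change and the p-value of each peak are the authors' deposited values, per the file headers. The score from which each FDR was computed here is the log10 FDR as deposited. Depth is unknown, and Clopper-Pearson intervals on shares cover counting error only, over peaks that are not independent.

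Calling a peak required a deposited FDR under 0.05. No test was run on the pseudogene peaks as a set. The named pseudogenes are the 12 lower and 12 higher called with the largest absolute log2 fold change (1 peak per gene), the 10 called with the smallest FDR, up to 3 per name group and up to 12 called copies with a parent in the table; others, the description groups, the overlapping genes and the pseudogenes in the plot of several peaks were chosen after their values were seen. The members and lists were chosen with earlier results of these data known. Gene bounds and classes came from the RefSeq annotation of GRCh38.p14, matched by symbol or unique synonym. Alternatives changed the threshold, the adjustment, the definition, overlaps, centring and the parent match. Scripts ran in Python 3.11.15 with scipy 1.17.1, pandas 2.3.3, matplotlib 3.10.9 and numpy 2.4.6 and were tested on simulated data.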

Additional observations from a re-analysis of the deposited data

How the results depend on the processing

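The count of 49 called pseudogene peaks moved by more than 1.5 times under 3 settings: 22 at an FDR under 0.01 (12 lower and 10 higher), 27 where a change of 1 or more on the log2 scale was also asked (16 and 11), and 29 of 302 peaks when RefSeq had to list a pseudogene (16 and 13); a stricter rule or fewer peaks makes each of these smaller. It stayed between 40 and 67 under the other settings run, the lowest without spans overlapping another coding gene, a setting added after the data were seen. More were called lower than higher under every setting run. The median log2 fold change of 0.34 became 0.57 once the median of all peaks (-0.24) was subtracted, by construction, and stayed between 0.33 and 0.41 otherwise; the split of called peaks after that centring was again 29 and 20. Same-sign pairs numbered 34 of 81, 38 with the median over parent peaks, 41 after centring and 45 of 104 by description. Of 31 named peaks that were called, 14 were not called at an FDR under 0.01. No paired analysis was possible because the table holds no values per sample; for the same reason no library could be left out.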
